A study of Mus musculus with 29 samples.

Results

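The cytosolic ribosomal protein genes were examined in macrophages sorted from the spleen and liver of mice. They were the rows of the deposited table whose symbol follows the naming pattern of small (Rps) and large (Rpl) subunit proteins, without the Rps6k kinases and without symbols ending in -ps, and with a mean of at least 1 RPM over all 29 libraries. RPM are the reads of a gene scaled to a fixed total of reads in each library. Of 23930 genes in the table, 24 matched the pattern and 19 passed the mean. All mice were C57BL/6, of both sexes and untreated, and their ages are not given in the sources used here. Rnaset2-/- mice lack both mouse RNase T2 genes, Rnaset2a and Rnaset2b, in all cells. WT mice carry both genes. RNase T2 is an enzyme that degrades RNA in lysosomes. Splenic and hepatic Ly6Chi and Ly6Clow macrophages were gated as CD11b+ cells that lacked Ly6G, NK1.1 and SiglecF, and Ly6Clow cells had Fcgr4 in addition. Kupffer cells (KCs), the resident macrophages of the liver, were gated by F4/80, intermediate CD11b, Tim4 and low PDCA-1, and were taken from WT mice only. The sorting methods of the paper differ for the liver. They give F4/80+ cells with high CD11b as macrophages and those with low CD11b as KCs, and name no Ly6G, NK1.1, SiglecF or Tim4 there. There were 3 libraries in each group, except 4 of splenic Ly6Clow macrophages from Rnaset2-/- mice and 4 of KCs. The sources used here do not say whether each library came from a separate mouse, so that p-values measure the spread between these libraries, which may be technical.

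A ribosome has a small subunit, which holds and decodes the mRNA, and a large subunit, which forms the peptide bond, and each is built of ribosomal RNA and of ribosomal proteins that are needed in equal number. The mRNAs of ribosomal proteins are abundant in every cell and typically start with a run of pyrimidines, through which mTOR controls their translation. Transcription by RNA polymerase I, factors that assemble the subunits in the nucleolus, and Myc are the other known levels of control. Some ribosomal proteins have a second gene, a paralog, whose mRNA is found in fewer tissues.

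Of the 19 members, 7 encode core proteins of the small subunit (Rps3, Rps9, Rps14, Rps15 and Rps21 are described here), 5 encode core proteins of the large subunit (Rpl4, Rpl8, Rpl30, Rpl32 and Rpl41) and Rplp0 encodes the base of the stalk that binds elongation factors. The other 6 are paralogs. Rpl3l is the copy of Rpl3 used in heart and skeletal muscle, Rpl39l is the copy of Rpl39 found in testis, Rps27l is a target of p53 that resembles Rps27, Rpl36al is the autosomal copy of X-linked Rpl36a, Rpl7l1 resembles Rpl7, and Rps4l resembles Rps4x. Many other ribosomal protein genes were not analysed here. The members with the lowest means were Rpl39l at 1.09 RPM, Rplp0 at 2.10 and Rpl3l at 2.38. Just outside the limit were Rps4x at 0.586 RPM, Rpl32l at 0.511, Rpl22 at 0.386, Rpl10l at 0.233 and Rps2 at 0.228. Rplp0, Rps4x, Rpl22 and Rps2 are genes that every cell uses, and are only said here to be listed at these levels.

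All 19 members were placed on autosomes by the mouse annotation (GENCODE vM21, GRCm38), which is the mm10 build of the submitters' processing notes. The annotation gives 18 of them as protein coding. Rps4l (chromosome 6, 148354656 to 148355598, + strand) is given as a transcribed processed pseudogene, which goes against calling it a protein gene. Of the 18 others, 13 had at least 1 annotated pseudogene transcript of at least 95% identity over at least 100 bases, with 12 such transcripts for Rpl30, so that their reads may in part come from copies. Each value is the read count of the amplified targets of a gene, and levels of different genes were therefore not compared.

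Sequences at the start sites are shown because a pyrimidine run is the feature these genes are known to share. RefSeq start sites (GRCm38.p6) were held for 12 of the 19 members, with 15 start sites in all. The windows below cover 20 bases before and 10 bases from the start on the strand of the gene, and capitals mark the longest run made of C and T in the window. Rpl4 (chr9:64173367-64173396, + strand), Rps9 (chr7:3704021-3704050, + strand) and Rps27l (chr9:66946066-66946095, + strand) held the longest runs of the members, of 14, 9 and 9 bases. The runs of Rpl4 and Rps27l began at -18 and -12 from the annotated start and ended before it. That of Rps9 began at -6 and crossed the start. Rps3 (chr7:99483700-99483729, - strand), which fell in hepatic Ly6Clow macrophages from Rnaset2-/- mice, held a run of 3 bases, as did Rpl41 and Rpl7l1, which rose in the same comparison.
Rpl4: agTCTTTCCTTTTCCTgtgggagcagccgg
Rps9: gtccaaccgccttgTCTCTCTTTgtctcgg
Rps27l: cctctccaCTCCTCCCCgccgcctctatcc
Rps3: gaacaCTTgcaagggtcgccgcgctgcgcg
Within 20 bases on either side of the start, on the strand of the gene, a run of at least 8 pyrimidines was found at 3 of the 15 start sites of members (20%) and at 16.05% of all 32851 start sites. The median longest run was 5 bases in both. The match is a description of letters only, and annotated starts may lie some bases away from the start used in these cells. GENCODE places the gene start of Rps3 at 99483738, of Rps9 at 3703993 and of Rpl41 at 128549305. These positions lie outside the windows used here, and runs at them were not examined.

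The libraries held 11175843 to 21167602 reads, and a level of 3 reads, taken as the lowest detectable, was 0.142 to 0.268 RPM and covers counting error only. Splenic Ly6Chi libraries from Rnaset2-/- mice held 20404155 to 21167602 reads, and those from WT mice 14280906 to 14415756. No other library held more than 14572065 reads. Genotype and depth therefore cannot be told apart in splenic Ly6Chi macrophages, and interaction terms that use these libraries share this limit. The 10 macrophage markers examined were detected in every group. In KCs the summed Kupffer cell markers (8 genes) were 6460 to 19938 RPM. The same sum was 127.9 to 159 RPM in hepatic Ly6Clow macrophages from WT mice and 6417 to 11403 RPM in those from Rnaset2-/- mice. Splenic Ly6Chi libraries held 30842 to 58403 RPM of neutrophil markers (14 genes) although the gate removes Ly6G+ cells. Hepatic Ly6Chi and Ly6Clow libraries from Rnaset2-/- mice held 0 to 0.154 RPM of Xist and 150.1 to 291 RPM of 4 Y-linked genes in sum. Xist was at 321 RPM or more in all of those from WT mice, whose replicates 2 and 3 had Y-linked reads as well (28.95 to 52.03 RPM). Genotype and sex therefore cannot be told apart in the liver. In the spleen only replicate 2 of Ly6Clow macrophages from Rnaset2-/- mice had Y-linked reads (301 RPM) and almost no Xist (0.781 RPM). In every comparison below, RPM were divided by relative log expression (RLE) factors, log2(value + 1) was tested with limma over all tested genes, and a gene was called at a change of >1.5-fold with an adjusted p below 0.05. Fold changes are on the log2(value + 1) scale, which understates changes of low genes.

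The 19 genes together took 1.01% to 1.69% of the reads of a library. Their summed level was 15794 ± 209 RPM (SD, n = 3) in splenic Ly6Chi macrophages from WT mice and 13165 ± 772 RPM (n = 3) in those from Rnaset2-/- mice, and the groups did not overlap. In splenic Ly6Clow macrophages it was 11956 ± 138 RPM (n = 3) and 12529.6 ± 515 RPM (n = 4), with overlap. In hepatic Ly6Chi macrophages it was 15100.3 ± 1582 RPM (n = 3) and 15316 ± 242 RPM (n = 3), again with overlap. In hepatic Ly6Clow macrophages the 3 WT libraries held 13510.0, 15469 and 16899 RPM, and the 3 Rnaset2-/- libraries held 10142, 11418 and 12639 RPM. All of the latter were below all of the former. KCs held 11513 to 12773 RPM (n = 4), below every hepatic WT library of Ly6Chi or Ly6Clow macrophages. These sums are RPM as deposited and rest mainly on the members with the highest read counts. In bulk libraries, fewer cells of a type and less RNA per cell cannot be told apart.

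**Figure D1:**
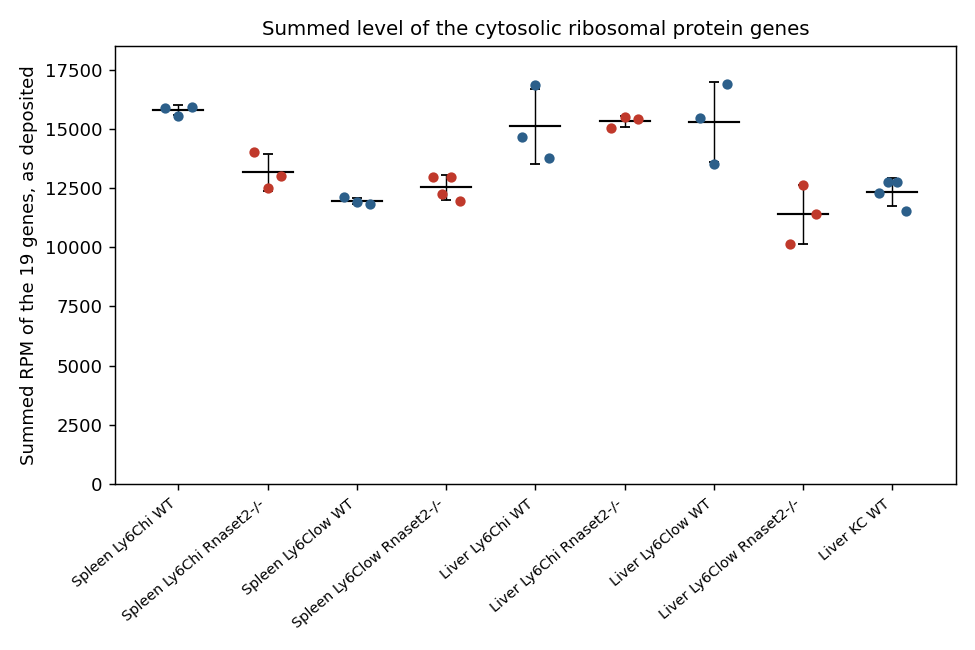
Summed RPM of the 19 genes as deposited (vertical axis, from 0) in each of the 29 libraries (points, WT in blue and Rnaset2-/- in red), with the mean and SD of each of the 9 groups (black). Hepatic Ly6Clow macrophages from Rnaset2-/- mice sit at 10142 to 12639 RPM, below their WT counterparts at 13510.0 to 16899 RPM.

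The range of the group means differed between members. Over the 10 members with a mean of at least 600 RPM, the highest group mean was 1.59 to 2.44 times the lowest (median 1.81). Rpl8, a large subunit protein close to the peptidyl transferase center, had the narrowest range, from 669 RPM in hepatic Ly6Clow WT to 1068 RPM in hepatic Ly6Chi Rnaset2-/- macrophages. Rps9, which sits at the entry of the mRNA channel, had the widest of these, from 986 RPM in splenic Ly6Clow WT to 2402 RPM in hepatic Ly6Chi WT macrophages. Over all 19 members the ratio ran from 1.59 to 62.5 (median 2.10). The largest ratios were those of Rpl3l (62.5), Rpl39l (10.2) and Rps4l (3.49), followed by that of Rpl41 (2.55).

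In splenic Ly6Chi macrophages, Rnaset2-/- mice were compared with WT mice. The paralog Rps27l rose and the large subunit gene Rpl30 fell. Rps27l was at 211, 144 and 184 RPM in WT and at 282, 246 and 263 RPM in Rnaset2-/- libraries. Every Rnaset2-/- library was above every WT library, with a log2 fold change of 0.68 (SE 0.13, adjusted p = 0.00244, limma). Rpl30, a protein at the contact between the subunits, was at 105, 113 and 116 RPM in WT and at 79.7, 48.3 and 71.1 RPM in Rnaset2-/- libraries. The groups did not overlap, and the log2 fold change was -0.65 (SE 0.15, adjusted p = 0.00691). These were 1 member higher, where 9.77% of all tested genes were called higher, and 1 member lower, where 12.5% were called lower, of 18 members tested. By adjusted p alone, 3 members were higher and 3 were lower, beside 19.7% and 18.4% of all genes.

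The 4 further members that passed by adjusted p alone changed by less than 1.5-fold. Rpl7l1 was at 92.8, 93.2 and 89.6 RPM in WT and at 105, 117 and 136 RPM in Rnaset2-/- libraries (log2 fold change 0.48, SE 0.11, adjusted p = 0.00611). Rpl41, a very short basic protein between the subunits, was at 50.5, 55.02 and 51.5 RPM and at 65.7, 56.4 and 58.4 RPM (0.31, SE 0.10, adjusted p = 0.0342). In both genes the 2 groups stood apart, with the Rnaset2-/- libraries higher. Rps15, in the head of the small subunit, was at 2689, 2519 and 2691 RPM in WT and at 1998, 1917 and 1917 RPM in Rnaset2-/- libraries (-0.32, SE 0.10, adjusted p = 0.0309). Rps3, a small subunit protein at the mRNA entry that also takes part in NF-κB transcription, was at 2027, 1915 and 1801 RPM and at 1423, 1398 and 1466 RPM (-0.30, SE 0.10, adjusted p = 0.0368). For Rps15 and Rps3 all Rnaset2-/- libraries were lower. The call of Rpl7l1 held in 13 of 13 alternatives, whereas those of Rpl41, Rps15 and Rps3 were lost without any single WT library. That of Rpl41 was also lost without Rnaset2-/- replicate 1, with the replicate block and in RPM as deposited. That of Rps3 was also lost without Rnaset2-/- replicate 2, with the replicate block and without a filter on low values. Without this filter that of Rps15 was lost as well (adjusted p of at most 0.167 in all of these, limma).

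Over the 18 tested members in splenic Ly6Chi macrophages the median log2 fold change was -0.07, beside 0.01 over all tested genes. In 4 members all Rnaset2-/- libraries were higher in RPM as deposited than all WT libraries, and in 8 all were lower. The share of all tested genes that stood apart in this way is not given here, so these counts have no baseline. Under RPM as deposited the median was -0.18 and that of all genes was -0.10, and 0 members were called higher and 2 lower. Without WT replicate 2 no member was called higher. In the same libraries 23 of 25 tested cell cycle genes were called higher and 16 of 25 tested immediate early genes lower. All 11 NK cell markers (802 to 874 RPM in sum in WT and 37.1 to 80.9 RPM in Rnaset2-/- libraries), all 11 T cell markers (352 to 381 and 28.1 to 62.9 RPM) and all 4 tested erythroid markers were called lower as well, and 7 of 14 neutrophil markers higher. None of the NK or T cell markers was at 0 in either group, and the part of these lists in the changes of ribosomal protein genes was not tested.

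In splenic Ly6Clow macrophages, Rpl30 was the only member called, and it was higher in Rnaset2-/- mice. It was at 73.5, 53.2 and 70.7 RPM in WT and at 108, 103, 123 and 98.6 RPM in Rnaset2-/- libraries. The groups stood apart, and the log2 fold change was 0.72 (SE 0.15, adjusted p = 0.023, limma). Of 18 members, 1 was called higher, where 4.05% of all genes were, and 0 lower, where 4.3% were. By adjusted p alone, Rps27l was added (4.46% of all genes higher and 4.87% lower), so that 2 members were higher and 0 lower. Rps27l was at 138, 111 and 127 RPM in WT and at 179, 170.5, 165 and 157 RPM in Rnaset2-/- libraries (log2 fold change 0.43, SE 0.11, adjusted p = 0.0466). All 4 Rnaset2-/- libraries were above the WT libraries. This call of Rps27l was lost in 11 of 14 alternatives, among them RPM as deposited, TMM factors, edgeR and leaving out any WT library (adjusted p of at most 0.16). By an unadjusted p below 0.05 in limma, 1 member was lower (Rpl3l, log2 fold change -0.78) and Rps9 (0.40) and Rpl36al (0.66) were higher. Their adjusted p in limma was 0.097, 0.0963 and 0.12. Fits of edgeR and of DESeq2 on recovered reads each called 1 member higher and 0 lower. Shares of all genes by unadjusted p or in these fits are not given here.

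The median over the 18 members in splenic Ly6Clow macrophages was 0.03 on the log2 scale, beside 0.01 over all genes. The call of Rpl30 was lost when any of the 3 WT libraries was left out, with an adjusted p of at most 0.0859. Neutrophil markers in these Rnaset2-/- libraries ranged from 3539 to 41666 RPM, against 1114 to 2527 RPM in WT, and their part was not tested.

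In hepatic Ly6Chi macrophages, 3 members were lower in Rnaset2-/- mice under RLE factors. Rpl32, a large subunit protein, was at 910.2, 938 and 1497 RPM in WT and at 659.5, 693 and 623 RPM in Rnaset2-/- libraries, with no overlap (log2 fold change -1.04, SE 0.26, adjusted p = 0.0203, limma). The paralog Rpl36al was at 24.1, 36.5 and 25.2 RPM and at 24.6, 17.3 and 17.3 RPM (-0.81, SE 0.26, adjusted p = 0.0477). For Rpl36al the deposited values of the groups overlapped. Of 19 members, 0 were called higher, where 15.7% of all genes were (15.9% by adjusted p alone), and 3 lower, where 14.9% were (15.3% by adjusted p alone, which gave the same counts). By an unadjusted p below 0.05, 0 members were higher and 4 lower in limma. On recovered reads, edgeR and DESeq2 each called 0 higher, and 2 and 3 lower. Shares of all genes at these settings are not given here, so these counts have no baseline. The median over members was 0.00, beside 0.01 over all genes. Of the others, Rps3 was at 2463, 2549.9 and 2076 RPM in WT and at 1816, 2048 and 2015 RPM in Rnaset2-/- libraries (-0.58, SE 0.21, adjusted p = 0.0729).

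These 3 calls in hepatic Ly6Chi macrophages depended on the scaling. In RPM as deposited the median of all genes was 0.31 and that of the members 0.25, and 1 member was called higher and 0 lower. Leaving out WT replicate 3, Rnaset2-/- replicate 2 or Rnaset2-/- replicate 3 left 0 members lower, leaving out WT replicate 1 left 1, and leaving out Rnaset2-/- replicate 1 gave 5. Without WT replicate 2, 1 member was higher. Beside these values, T cell markers (11 genes) summed to 16.5 to 38.7 RPM in WT and 301 to 652 RPM in Rnaset2-/- libraries, with 1 of the markers at 0 in WT and none in Rnaset2-/- mice, and immediate early genes to 34050 to 37218 RPM and 4610 to 9826 RPM. NK cell markers summed to 34.0 to 53.3 RPM in WT and 290 to 722 RPM in Rnaset2-/- libraries. In the same order, sinusoidal endothelial markers (10 genes) summed to 176 to 211 and 531 to 3144 RPM. Kupffer cell markers summed to 7.68 to 8.41 and 204 to 440 RPM, and erythroid markers to 2.9 to 6.4 and 94.7 to 316 RPM. Sums of B cell and of neutrophil markers overlapped between the genotypes. The part of these lists was not tested.

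In hepatic Ly6Clow macrophages, 9 of 18 members were called, the highest number among the 4 comparisons of genotypes. The shares of all genes called higher and lower were also the highest of the 4, so this rank is not particular to the members. Rps3, Rps21, Rpl32 and Rpl3l were among the members that were lower, whereas Rpl41 and the paralogs Rpl7l1 and Rps27l were higher. The 3 members higher stand beside 20.2% of all genes called higher, and the 6 lower beside 22.5% called lower. By adjusted p alone the counts were the same, beside 21.5% and 23.4% of all genes. The median over members was -0.14 on the log2 scale, beside 0.01 over all genes.

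Rps3 was at 2268, 2043 and 2808 RPM in WT and at 1007, 1256 and 1213 RPM in Rnaset2-/- libraries (log2 fold change -1.07, SE 0.21, adjusted p = 0.00417, limma). Rpl32 was at 784, 1118 and 1056 RPM and at 453, 578 and 498 RPM (-0.98, SE 0.21, adjusted p = 0.00607). In both genes every Rnaset2-/- library was below every WT library. Rps21 was at 742, 808 and 746 RPM and at 428, 535 and 462 RPM (-0.73, SE 0.16, adjusted p = 0.00793). Its groups stood apart as well. Rpl3l was at 4.47, 4.18 and 5.01 RPM in WT, that is 54, 48 and 56 reads, and at 0.308, 0.467 and 0.077 RPM in Rnaset2-/- libraries, that is 4, 6 and 1 reads (-2.14, SE 0.25, adjusted p = 0.00036).

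The members that rose in hepatic Ly6Clow macrophages were Rpl41, Rpl7l1 and Rps27l. Rpl41 was at 47.3, 72.5 and 59.1 RPM in WT and at 139, 129 and 108 RPM in Rnaset2-/- libraries (log2 fold change 1.03, SE 0.21, adjusted p = 0.00481, limma). Rpl7l1 was at 109, 78.8 and 83.9 RPM and at 142, 179.5 and 199.99 RPM (0.90, SE 0.19, adjusted p = 0.00663). Rps27l was at 94.0, 93.1 and 134 RPM and at 191, 192 and 145 RPM (0.68, SE 0.20, adjusted p = 0.0259). No WT library reached a Rnaset2-/- library in any of them. Of the other large subunit genes, Rpl8 had a log2 fold change of 0.02 (95% CI -0.38 to 0.42) and Rpl4 of -0.12 (95% CI -0.65 to 0.40). Rplp0, of low level, was at 1.24, 1.66 and 0.984 RPM in WT and at 2.39, 2.26 and 3.22 RPM in Rnaset2-/- libraries, which did not overlap but missed the threshold (0.63, SE 0.26, adjusted p = 0.0828, limma). Rps9, unlike Rps3 and Rps21, had 0.03 (95% CI -0.52 to 0.58).

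**Figure D2:**
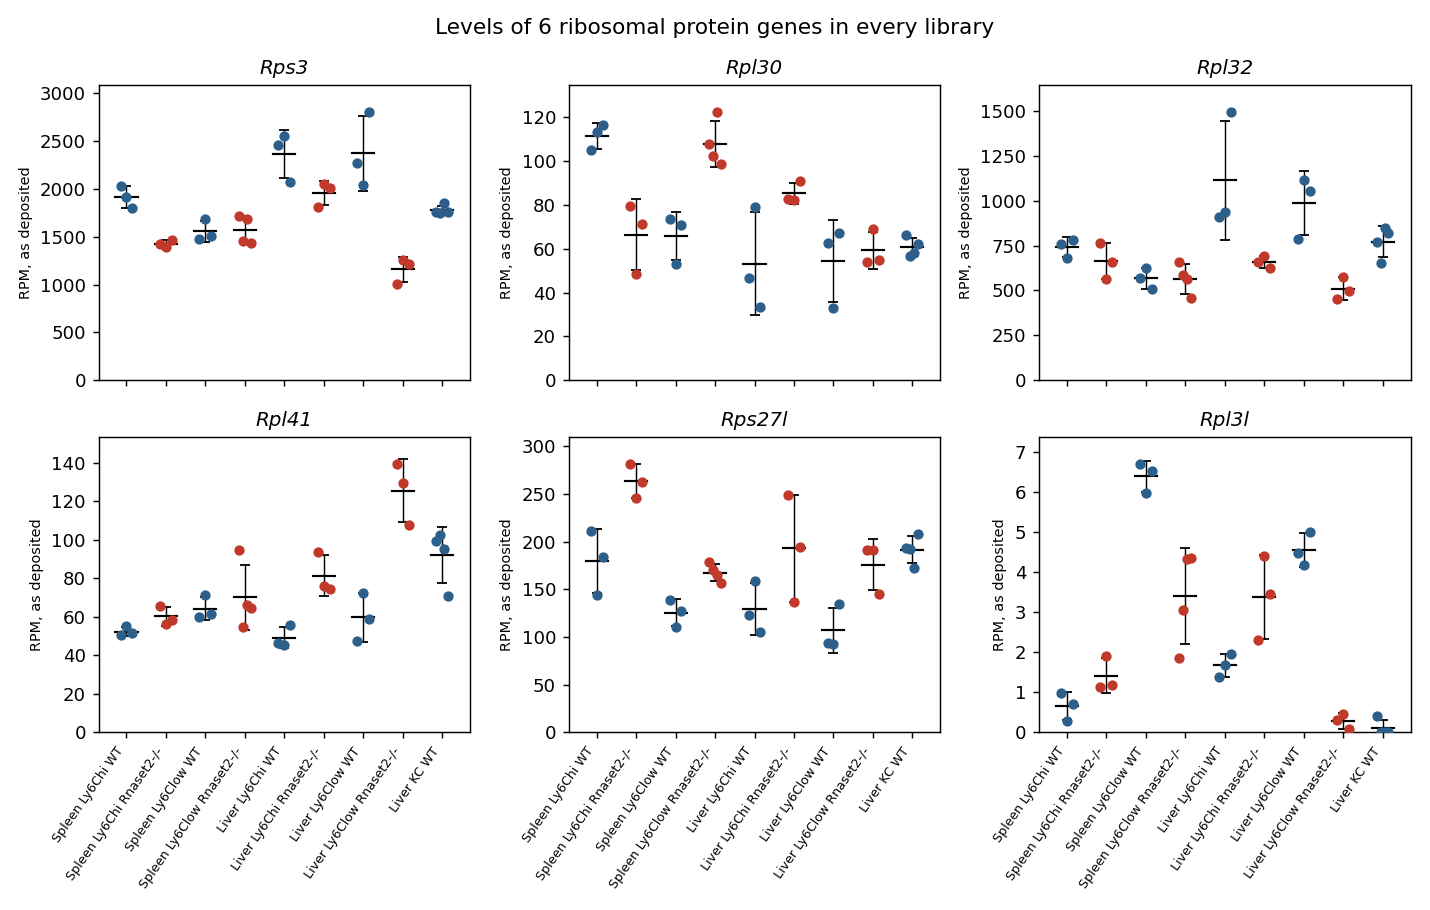
RPM as deposited (vertical axes, from 0) of Rps3, Rpl30, Rpl32, Rpl41, Rps27l and Rpl3l in each of the 29 libraries (points, WT in blue and Rnaset2-/- in red) with the mean and SD of each of the 9 groups. In hepatic Ly6Clow macrophages Rps3, Rpl32 and Rpl3l are lower and Rpl41 and Rps27l higher in all 3 Rnaset2-/- libraries than in all 3 WT libraries, and Rpl3l is near 0 in KCs and in those Rnaset2-/- libraries.

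The call of Rpl41 in hepatic Ly6Clow macrophages held in all 14 alternatives tried (adjusted p from 0.000213 to 0.0334). That of Rps27l was lost in 5 of 14, namely without WT replicate 1 or 2, without Rnaset2-/- replicate 2, with the replicate block and without both WT libraries named below (adjusted p of at most 0.1). The count of members ranged from 2 to 3 higher and from 4 to 6 lower when 1 library at a time was left out, where Rpl3l was not tested without any of the WT libraries. Without both WT libraries that held Xist and Y-linked reads together, 1 member was higher and 0 lower with a median of -0.13, a fit in which the single remaining WT library was assumed to vary like the others. Beside these changes, summed immediate early genes were at 29487 to 42263 RPM in WT and at 1813 to 2761 RPM in Rnaset2-/- libraries, and the Kupffer cell marker sum was 6417 RPM or more in every Rnaset2-/- library and 159 RPM or less in every WT library, with none of the 8 Kupffer cell markers at 0 in either group. KCs, at 0 to 0.41 RPM of Rpl3l, were near the Rnaset2-/- libraries in this gene, but at 1753 to 1849 RPM of Rps3 they were above them. The part of these markers in the changes was not tested.

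**Figure D3:**
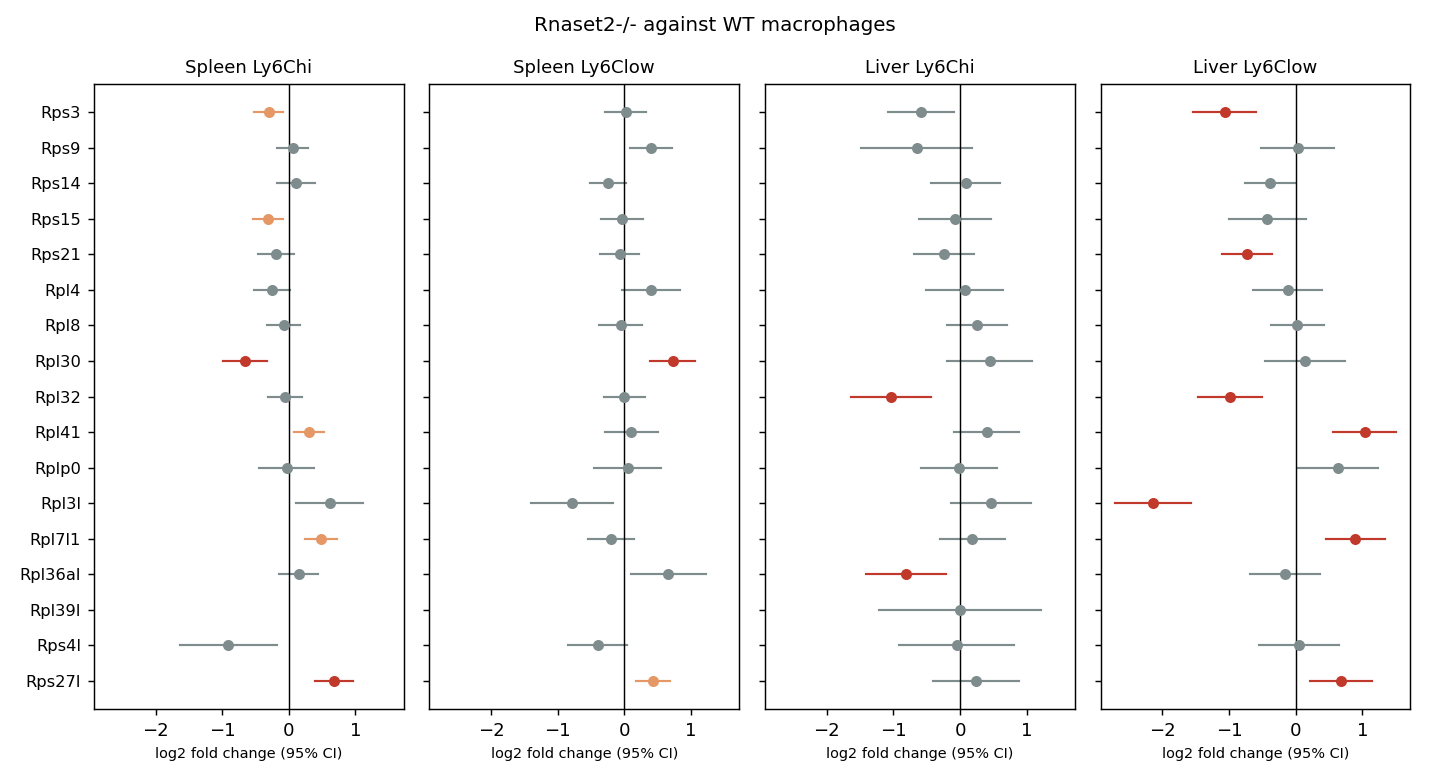
log2 fold change with its 95% CI (horizontal axes, limma on log2 of RLE-scaled RPM + 1) of 17 members, where tested, in Rnaset2-/- against WT macrophages, in 4 panels by organ and subset (red, >1.5-fold and adjusted p below 0.05; orange, adjusted p below 0.05 only; grey, neither). Rpl30 is called in opposite directions in the splenic panels, and Rpl32 lies below 0 with a call in both hepatic panels.

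The difference between genotypes was then compared between organs and subsets by an interaction term in limma. In Ly6Clow macrophages, 8 of 18 members differed between liver and spleen, where 26.8% of all genes did. The largest differences were those of Rpl3l (-1.37, SE 0.36, adjusted p = 0.0135), Rpl7l1 (1.11, SE 0.24, adjusted p = 0.00515) and Rps3 (-1.08, SE 0.23, adjusted p = 0.00451). A negative value means a lower Rnaset2-/- against WT ratio in the liver. Rpl32 (-0.97) and Rps21 (-0.65) also had negative differences and Rpl41 (0.94) a positive difference. In Ly6Chi macrophages, 3 of 19 members differed between organs, where 33.5% of all genes did. They were Rpl30 (1.13, SE 0.34, adjusted p = 0.0227), Rpl32 (-0.95, SE 0.28, adjusted p = 0.0218) and Rpl36al (-0.93, SE 0.30, adjusted p = 0.0305). The count in Ly6Chi macrophages ranged from 0 to 5 with 1 library left out and was 0 without splenic WT replicate 2, 1 without splenic WT replicate 3, splenic Rnaset2-/- replicate 1 or hepatic Rnaset2-/- replicate 3, and 5 without hepatic Rnaset2-/- replicate 1.

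Within the spleen, the genotype difference of 3 of 18 members differed between Ly6Clow and Ly6Chi macrophages, where 14.7% of all genes did. Rpl30 had opposite directions in the 2 subsets, and the difference was 1.36 (SE 0.23, adjusted p = 0.00291, limma). The others were Rpl3l (-1.40, SE 0.37, adjusted p = 0.0236) and Rpl7l1 (-0.70, SE 0.20, adjusted p = 0.0296). Leaving out splenic WT Ly6Chi replicate 2 or 3, WT Ly6Clow replicate 3 or Rnaset2-/- Ly6Chi replicate 2 left 1 member. Within the liver, only Rpl3l of 19 members differed, with -2.59 (SE 0.34, adjusted p = 0.000912), where 10.3% of all genes did. These terms share libraries with the comparisons above.

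Ly6Clow macrophages derive from Ly6Chi cells, and both subsets were compared within each organ and genotype. In the spleen of WT mice, 1 of 18 members was higher in Ly6Clow macrophages, where 13.8% of all genes were, and 5 were lower, where 19.8% were. Rps9 was at 2072, 2294 and 2069 RPM in Ly6Chi and at 946, 912 and 1100.4 RPM in Ly6Clow libraries (log2 fold change -0.98, SE 0.10, adjusted p = 1.41e-05, limma). Rpl36al was at 28.03, 25.5 and 28.6 RPM and at 12.1, 11.7 and 14.7 RPM (-0.90, SE 0.13, adjusted p = 0.000252). Rpl3l was at 0.971, 0.278 and 0.7 RPM in Ly6Chi and at 6.71, 5.97 and 6.53 RPM in Ly6Clow libraries, which is 4 to 14 and 87 to 96 reads (2.27, SE 0.19, adjusted p = 5e-06). In all 3 genes the subsets stood apart. Rpl4, which lines the exit tunnel, Rpl30 and Rps4l were also lower, with log2 fold changes of -0.62, -0.62 and -0.60. Rps21 (0.40, SE 0.08, adjusted p = 0.00221) and Rpl41 (0.43, SE 0.10, adjusted p = 0.00552) were higher by less than 1.5-fold. The median over members was -0.22, beside 0.01 over all genes, and all 25 tested cell cycle genes and all 14 neutrophil markers were called lower in the same Ly6Clow libraries, whose part was not tested. Without Ly6Clow replicate 2, 2 members were called lower, and without any of the 3 Ly6Clow libraries Rpl3l, at less than 1 RPM in Ly6Chi libraries, did not reach the filter and was not tested, which left 0 called higher.

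In the spleen of Rnaset2-/- mice, 1 of 18 members was higher in Ly6Clow macrophages, where 13% of all genes were, and 3 were lower, where 15.1% were. Rpl30 was higher, at 79.7, 48.3 and 71.1 RPM in Ly6Chi and at 98.6 to 123 RPM in the 4 Ly6Clow libraries (log2 fold change 0.73, SE 0.17, adjusted p = 0.0136, limma). Its direction was the opposite of that in WT mice. Rps9 was lower, at 2005, 2099 and 2071 RPM and at 1161 to 1404 RPM (-0.66, SE 0.13, adjusted p = 0.00749), and so were Rpl7l1 (-0.65, SE 0.16, adjusted p = 0.0151) and Rps27l (-0.64, SE 0.10, adjusted p = 0.0026). Rps21 passed by adjusted p with a change under 1.5-fold (0.49, SE 0.15, adjusted p = 0.0357). The median over members was -0.08, beside -0.02 over all genes. Without Ly6Chi replicate 2, 0 members were higher, and without Ly6Clow replicate 1, 2 were.

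In the liver the subsets differed in few members. In WT mice Rpl3l alone of 18 members was higher in Ly6Clow macrophages, where 5.24% of all genes were higher, and 0 were lower, where 4.84% were. By an unadjusted p below 0.05 in limma, 2 members were lower, and edgeR and DESeq2 each called 0 lower. Shares of all genes at these settings are not given here. Rpl3l was at 1.39, 1.67 and 1.97 RPM in Ly6Chi and at 4.47, 4.18 and 5.01 RPM in Ly6Clow libraries (log2 fold change 0.97, SE 0.25, adjusted p = 0.0408, limma), and the call was lost when any 1 of the 6 libraries was left out (adjusted p of at most 0.208). In Rnaset2-/- mice the direction was reversed, with Rpl3l at 2.30, 4.40 and 3.46 RPM in Ly6Chi and at 0.308, 0.467 and 0.077 RPM in Ly6Clow libraries (-1.67, SE 0.28, adjusted p = 0.0109). Rpl41 was at 93.7, 75.9 and 74.4 RPM in Ly6Chi and at 139, 129 and 108 RPM in Ly6Clow libraries (0.78, SE 0.21, adjusted p = 0.0477). That made 1 member higher, where 8.75% of all genes were, and 1 lower, where 8.26% were, of 18. The call of Rpl41 was lost in 8 of 13 alternatives, among them RPM as deposited, edgeR and leaving out any Ly6Clow library (adjusted p of at most 0.166). In this comparison alone the replicate numbers paired the libraries, and with the replicate as a block 2 members were higher and 1 lower. In RPM as deposited 0 were higher and 4 lower. The medians over members were -0.08 in WT and -0.21 in Rnaset2-/- mice, beside 0.02 and -0.02 over all genes, and in Rnaset2-/- mice 0 members were higher without Ly6Chi replicate 2 or 3 or Ly6Clow replicate 2 or 3, whereas without Ly6Chi replicate 1, 2 or 3 Rpl3l did not reach the filter and was not tested, which left 0 lower.

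KCs were compared with the other hepatic macrophages of WT mice. Under RLE factors most small subunit genes were lower in KCs, whereas Rps4l was higher. Against Ly6Chi macrophages, 1 of 19 members was higher, where 29.3% of all genes were, and 10 were lower, where 25.3% were. Against Ly6Clow macrophages, 2 were higher, where 26% were, and 9 were lower, where 24% were. These calls rested on the scaling. The median over members was -0.64 against Ly6Chi and -0.39 against Ly6Clow macrophages under RLE factors, beside 0.05 and 0.02 over all genes. In RPM as deposited the medians were 0.04 and 0.20, the median of all genes was itself shifted to 0.67 and 0.55, and 3 members were higher and 2 lower against Ly6Chi macrophages and 4 higher and 3 lower against Ly6Clow macrophages. TMM factors, another scaling, gave medians of -0.64 and -0.40 and the same counts as RLE factors. Scaling factors shift nearly all genes of a library alike. The median over members was therefore below that of all genes in each scaling, which is not a separate result for each.

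Rps9 was at 1762, 1733, 1178 and 1182 RPM in KCs and at 2489, 2762 and 1954 RPM in Ly6Chi libraries (-1.41, SE 0.22, adjusted p = 0.000196, limma). Rps15 was at 1112, 1340.2, 1879 and 1435 RPM in KCs and at 2845, 1855 and 2485 RPM in Ly6Clow libraries, with overlap in RPM (-1.33, SE 0.22, adjusted p = 0.000552). Rps3, Rps21, Rpl4 and Rpl32 were lower in KCs in both comparisons, with log2 fold changes from -1.18 to -0.64. Rpl4 against Ly6Chi macrophages had the opposite sign in RPM as deposited (0.04), as had Rps14 (0.20 instead of -0.49).

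Rps4l was at 47.6, 36.9, 50.6 and 60.5 RPM in KCs, at 14.4, 20.2 and 15.6 RPM in Ly6Chi and at 16.6, 15.0 and 21.6 RPM in Ly6Clow libraries. All KC libraries stood above all others, with log2 fold changes of 0.83 (SE 0.21, adjusted p = 0.00614) and 0.84 (SE 0.22, adjusted p = 0.0084) in limma, and the call held in all 14 alternatives of each comparison. Rpl39l, at 2.79, 2.83, 3.49 and 1.76 RPM in KCs, was at 0.745, 0.436 and 0.626 RPM in Ly6Clow libraries (0.88, SE 0.29, adjusted p = 0.0265), and this call was lost without any of the 3 Ly6Clow libraries. Rpl3l was listed at 0 in 3 of 4 KC libraries and at 0.41 RPM, or 5 reads, in the other, and the log2 fold changes were -1.56 (SE 0.30, adjusted p = 0.00106) against Ly6Chi and -2.64 (SE 0.29, adjusted p = 3.15e-05) against Ly6Clow macrophages. Beside these values, KCs held 1572 to 5371 RPM of hepatocyte markers (9 genes) and 3327 to 8298 RPM of sinusoidal endothelial markers (10 genes), against at most 292 and 561 RPM in the other WT hepatic libraries. Neither list had a gene at 0 in KCs. Replicate 3 of KCs held the highest of both sums and the lowest sum of Kupffer cell markers, at 6460 RPM. The other KC libraries held 17900 to 19938 RPM of Kupffer cell markers. Immediate early genes summed to 2652 to 4084 RPM in KCs and to 29487 to 42263 RPM in the other WT hepatic libraries. NK cell markers summed to 311 to 873 RPM in KCs and to at most 53.3 RPM in those libraries. For T cell markers the sums were 320 to 517 RPM and at most 38.7 RPM. The part of these markers and genes was not tested.

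**Figure D4:**
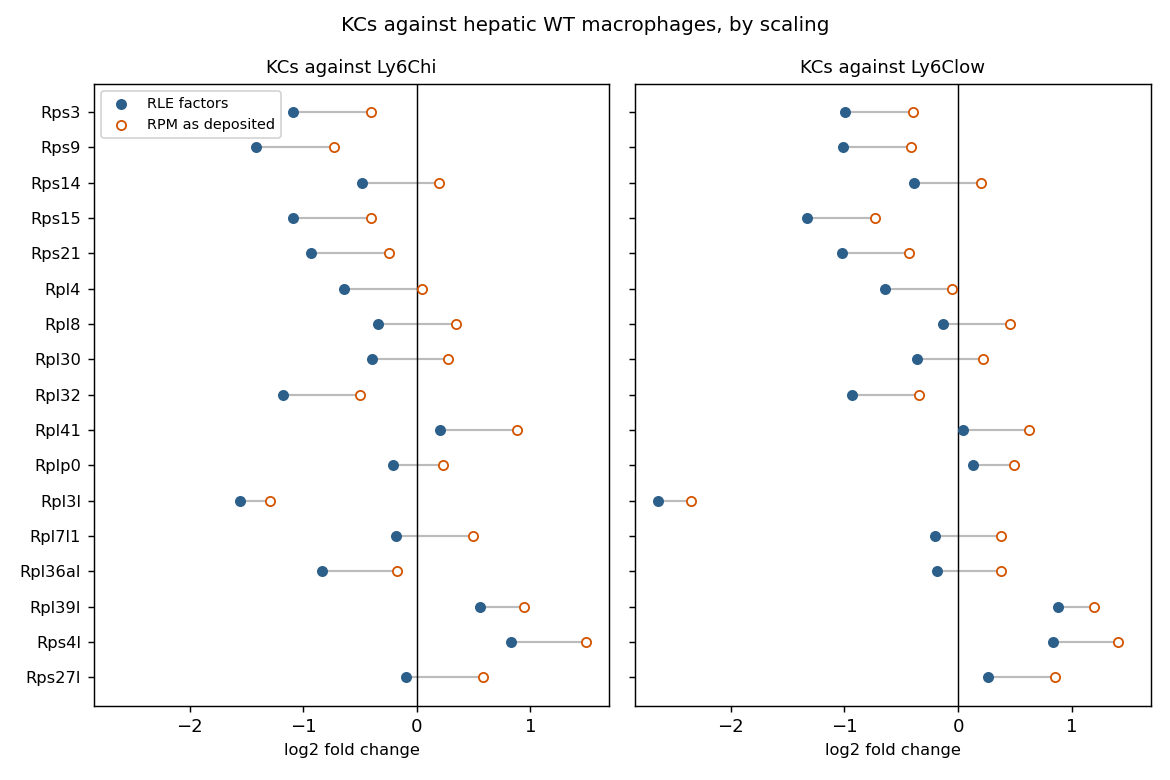
log2 fold change (horizontal axes) of 17 members in KCs against hepatic Ly6Chi (left) and Ly6Clow (right) WT macrophages, with RLE factors (blue) and with RPM as deposited (open orange), joined by a line for each gene. All points move to the right in RPM as deposited, where the medians over all 19 members change from -0.64 to 0.04 and from -0.39 to 0.20, and Rps4l is above 0 and Rpl3l below 0 in both scalings.

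Rpl3l, Rpl39l and Rps4l had the largest ratios between group means, and of these Rpl3l and Rpl39l had few reads. The group means of Rpl3l were 6.40 RPM in splenic Ly6Clow WT, 4.55 in hepatic Ly6Clow WT, 3.40 in splenic Ly6Clow Rnaset2-/-, 3.39 in hepatic Ly6Chi Rnaset2-/-, 1.68 in hepatic Ly6Chi WT, 1.41 in splenic Ly6Chi Rnaset2-/-, 0.650 in splenic Ly6Chi WT, 0.284 in hepatic Ly6Clow Rnaset2-/- macrophages and 0.103 in KCs. The splenic WT libraries of Ly6Clow macrophages lay above all others. Of the other neighbours in this order, hepatic Ly6Chi Rnaset2-/- stood apart from hepatic Ly6Chi WT macrophages, and splenic Ly6Chi Rnaset2-/- from splenic Ly6Chi WT macrophages, whereas the remaining neighbours overlapped. Rpl39l was uneven within groups. Among hepatic Ly6Chi Rnaset2-/- libraries it was at 3.53, 0.309 and 0.462 RPM, and among hepatic Ly6Clow Rnaset2-/- libraries at 1.77, 0.233 and 0.077 RPM, so that a mean says little. In both groups replicate 1 was the high library. Rps4l was at 34.6, 30.0 and 32.1 RPM in splenic Ly6Chi WT and at 7.56, 24.8 and 18.9 RPM in Rnaset2-/- libraries, which missed the threshold (log2 fold change -0.91, SE 0.33, adjusted p = 0.0521, limma).

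Other genes of the same pathway were counted in the 4 comparisons of Rnaset2-/- with WT mice. Rack1, a ribosome component that the naming pattern does not match, was at 2220 to 4233 RPM over all libraries, with log2 fold changes from -0.06 to 0.09 and adjusted p from 0.666 to 0.895. Of 82 factors of ribosome biogenesis tested in hepatic Ly6Chi macrophages, 29 were lower, where 14.9% of all genes were, and 0 higher, where 15.7% were (median -0.42), for example Heatr1 (-1.73, adjusted p = 0.00117), which acts in the assembly of the small subunit. In hepatic Ly6Clow macrophages, 14 were higher, where 20.2% of all genes were, and 12 lower, where 22.5% were (median 0.06). In splenic Ly6Chi macrophages 1 was higher and 3 lower, and in splenic Ly6Clow macrophages 1 was higher and 2 lower. Of 18 genes of RNA polymerase I transcription, 4 were lower and 0 higher in hepatic Ly6Chi and 5 lower and 2 higher in hepatic Ly6Clow macrophages, and in the splenic comparisons 0 passed the 1.5-fold threshold, with 3 lower in Ly6Chi and 1 lower in Ly6Clow macrophages by adjusted p alone. Taf1d, a subunit of the RNA polymerase I selectivity factor, was at 374.5 ± 70.6 RPM in WT and 49.99 ± 2.86 RPM in Rnaset2-/- hepatic Ly6Clow macrophages (n = 3 each, log2 fold change -2.90, adjusted p = 2.83e-05).

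Of 32 translation initiation factors, 9 were lower and 1 higher in hepatic Ly6Chi and 4 lower and 2 higher in hepatic Ly6Clow macrophages. In both, Eif5, which promotes GTP hydrolysis at the start codon, was lower, by -2.27 (adjusted p = 0.000312) and -2.11 (adjusted p = 8.28e-05) on the log2 scale. In splenic Ly6Chi macrophages 1 was higher and 1 lower, and in splenic Ly6Clow macrophages 1 was higher and 0 lower. Among 9 elongation genes, Eef2, the translocation factor, was higher in splenic Ly6Clow (0.67, adjusted p = 0.0488) and hepatic Ly6Clow macrophages (1.197, adjusted p = 0.00485), and the counts over the 4 comparisons were 1 or 2 higher and 0 or 1 lower. Mitochondrial ribosomal protein genes, which make the ribosome of another compartment, had 10 of 69 higher and 0 lower in splenic Ly6Chi, 2 of 69 higher and 0 lower in splenic Ly6Clow, 4 of 68 higher and 6 lower in hepatic Ly6Chi and 16 of 68 higher and 4 lower in hepatic Ly6Clow macrophages. Of 20 tested genes of the Myc and mTOR list, 0 to 3 were higher and 1 to 3 lower. Larp1, which binds the pyrimidine start of ribosomal protein mRNAs, was higher in both hepatic comparisons (2.03, adjusted p = 0.0103, and 2.17, adjusted p = 0.00167). The percentages of all genes called in each comparison given above apply to these counts.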

How the data were processed

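The members and the gene lists were chosen with earlier results of these data known. RNA of sorted macrophages was amplified by the authors with the Ion AmpliSeq Transcriptome kit, sequenced on the Ion Proton and counted per gene by the AmpliSeqRNA plug-in against mm10. The authors deposited RPM per gene and library, which corresponded to whole reads within 0.1 reads for 100% of values. Groups come from the labels.

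For each comparison, RPM were divided by RLE factors over the compared libraries. Genes that reached 1 RPM in 3 or more of these libraries were tested as log2(value + 1) in limma 3.58.1 (R 4.3.3; lmFit, eBayes with trend), two-sided, with Benjamini-Hochberg adjustment over all tested genes. Interactions used the 4 groups concerned. Alternatives were RPM as deposited, TMM factors, no filter, an added 0.1, edgeR 4.0.16 and DESeq2 1.42.0 on recovered reads, the replicate number as a block, adjusted p alone and leaving out each library. The fits were tested on simulated data. In the 3 same-numbered pairs of hepatic Rnaset2-/- Ly6Clow and Ly6Chi libraries, deviations from group means correlated at r = 0.232 to 0.527, and every library correlated best with its own number. In hepatic WT mice, Ly6Clow replicate 1 correlated best with Ly6Chi replicate 1 (r = 0.596), replicate 2 with 3, and replicate 3 with 2. A block by replicate number does not follow these WT matches.

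Named members were the 3 highest and 3 lowest by log2 fold change (2 outside the comparisons of genotypes) with an adjusted p below 0.05 and at least 10 RPM, the paralogs, Rplp0, Rps3 and Rack1, and those near the limit of the rule, and in other lists at most the 2 largest in each direction. Rps21, Rpl4, Rpl8 and Rps9 in hepatic Ly6Clow macrophages between genotypes, Rpl4 and Rpl30 between splenic WT subsets, and Rps14, Rps21, Rpl4 and Rpl32 in KCs fall outside it and were named after their values were seen. Counts, sums and medians cover all 19 members, of which 2 are not reported here by name. The deleted Rnaset2a and Rnaset2b were not analysed here.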

Additional observations from a re-analysis of the deposited data

Results flagged for a closer look

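The difference between genotypes differed between organs or subsets, by an interaction term in limma, for 13 pairs of a reported member and a comparison. In Ly6Clow macrophages, liver minus spleen was 1.11 for Rpl7l1, 0.94 for Rpl41, -0.65 for Rps21, -0.97 for Rpl32, -1.08 for Rps3 and -1.37 for Rpl3l on the log2 scale. In Ly6Chi macrophages it was 1.13 for Rpl30, -0.93 for Rpl36al and -0.95 for Rpl32. Ly6Clow minus Ly6Chi was 1.36 for Rpl30, -0.70 for Rpl7l1 and -1.40 for Rpl3l in the spleen, and -2.59 for Rpl3l in the liver.

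A single library stood far from the other 3 of its group in 3 of the 40 groups of 4 libraries examined, where chance flags about 1 in 20. Of these, 2 are given here. Rps3 was at 1849 RPM in replicate 3 of KCs and at 1753 to 1764 RPM in the others. Rpl3l was at 0.41 RPM in replicate 1 of KCs and listed at 0 in the others.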

How the results depend on the processing

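Counts and medians of members moved little under most alternatives: of 510 alternative values, 421 stayed within the limits set and 89 moved, and of 1102 values of single genes, 940 kept their call, 160 lost it and 2 changed direction. The cause was not tested. Except for adjusted p alone between genotypes, shares of all genes called at the settings of this section are not given here. The other counts of members in this section therefore have no baseline. In RPM as deposited, members higher, members lower and their median log2 fold change were 0, 2 and -0.18 in splenic Ly6Chi and 1, 0 and 0.25 in hepatic Ly6Chi macrophages between genotypes, 0, 4 and -0.38 between hepatic Rnaset2-/- subsets, 4, 3 and 0.20 for KCs against Ly6Clow, and 3, 2 and 0.041 for KCs against Ly6Chi macrophages, where Rpl4 (0.041) and Rps14 (0.20) turned direction. The median was -0.35 between splenic WT subsets, 2 members were higher between splenic Rnaset2-/- subsets, and 2 differed by subset in the liver. With the replicate number as a block, 2 were lower in splenic Ly6Chi and 1 in hepatic Ly6Chi macrophages between genotypes, 0 were higher and 1 lower between splenic Rnaset2-/- subsets, 0 were higher between hepatic WT subsets, 2 were higher between hepatic Rnaset2-/- subsets, and 1 was higher in KCs against Ly6Clow macrophages. The numbers paired the libraries in the comparison of hepatic Rnaset2-/- subsets only. By adjusted p alone, 3 were higher and 3 lower in splenic Ly6Chi and 2 higher in splenic Ly6Clow macrophages between genotypes, and 3 and 2 higher between splenic WT and Rnaset2-/- subsets. Without a filter, 1 was lower in hepatic Ly6Chi macrophages and 0 were higher between subsets in either hepatic genotype. DESeq2 gave 2 higher between splenic Rnaset2-/- subsets, 2 higher and 4 lower between hepatic Rnaset2-/- subsets, and 2 that differed by subset in the liver. edgeR gave 2 higher between splenic Rnaset2-/- subsets and 0 higher between either pair of hepatic subsets, and TMM factors 2 higher between hepatic Rnaset2-/- subsets. Without both hepatic WT libraries that held Xist and Y-linked reads together, an alternative chosen after seeing the data, 0 were lower in Ly6Chi and 1 was higher and 0 lower in Ly6Clow macrophages.

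With 1 library left out, between genotypes, splenic Ly6Chi macrophages had 0 to 1 higher and a median of -0.18 to -0.043, splenic Ly6Clow 0 to 1 higher, and hepatic Ly6Chi 0 to 1 higher and 0 to 5 lower. Between subsets, splenic WT had 0 to 1 higher and 2 to 5 lower, splenic Rnaset2-/- 0 to 2 higher, hepatic WT 0 higher, and hepatic Rnaset2-/- 0 to 1 higher and 0 to 1 lower. KCs had 1 to 2 higher and a median of -0.57 to -0.30 against Ly6Clow, and a median of -0.73 to -0.42 against Ly6Chi macrophages. Differences by organ in Ly6Chi macrophages numbered 0 to 5 and by subset in the spleen 1 to 4. Rpl3l did not reach the filter, and was not tested, without any Ly6Clow library between splenic WT subsets, without any Ly6Chi library between hepatic Rnaset2-/- subsets, or without any WT library in hepatic Ly6Clow macrophages. At 3 reads or fewer per library, as in part for Rpl3l and Rpl39l, depth limits any comparison.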
